A study of Homo sapiens with 8 samples.

Results

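The genes described here were 10 members of the bone morphogenetic protein (BMP) pathway, taken by symbol from the 23391 genes of the deposited table. They were the ligands BMP2, BMP4 and BMP7, the target genes ID1, ID2 and ID3, the inhibitory Smads SMAD6 and SMAD7, the pseudoreceptor BAMBI and the secreted antagonist GREM1. BMP4 was the gene around which the others were gathered, and it was chosen by its fold changes in these same libraries, lower with Esrrb and lower with DY131. Its values are therefore given as a description without a test, and the question put to the data was whether ID1, ID2, ID3, SMAD6 and SMAD7 followed it over the 4 conditions. Of the 10 members, 8 were tested because 2 libraries or more held them at 1 cpm (reads per 1000000 reads of the library) or above, and BMP2 and GREM1 were not.

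RNA-Seq counts came from DU145 cells, a human prostate cancer cell line, in 4 groups of 2 biological replicates. DU145-pc3.1 cells carried the empty vector pcDNA3.1-zeo(+), and DU145-Esrrb cells carried the same vector with Esrrb, the estrogen related receptor beta, an orphan nuclear receptor. Both were pools of stably transfected cells selected with Zeocin, not single clones, and expression came from a vector rather than from the cells' own gene. Each pool was given vehicle or 3 µM DY131, a synthetic ligand of Esrrb and of its relative Esrrg, and the duration of the treatment is not given in the sources used here. All groups were grown in charcoal-stripped serum, which is depleted of steroid hormones.

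BMPs are secreted ligands of the transforming growth factor beta family. They bind type I and type II receptor kinases, which phosphorylate SMAD1, SMAD5 and SMAD9. These enter the nucleus with SMAD4 and raise the transcription of the ID genes, which encode inhibitors of basic helix-loop-helix transcription factors. SMAD6 and SMAD7 are induced by the same signal and hold it back, BAMBI resembles a type I receptor without the kinase domain, and GREM1 binds BMP ligands outside the cell. In the prostate, BMP4 is known from the mesenchyme of the developing gland, where it restrains ductal budding.

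The vector's gene was looked at first. ESRRB had 104 and 99 reads in the DU145-Esrrb libraries and 105 and 143 in their DY131-treated counterparts, against 3, 0, 0 and 1 in the 4 libraries without it. The libraries held 7858743 to 11551690 counted reads. The 4 epithelial markers (KRT8, KRT18, CDH1, EPCAM) were at 62.3 cpm or more in every library, their sum ranging from 2106 to 2739 cpm. That sum was mostly KRT8 and KRT18, and single markers differed between groups. CDH1 was at 165 and 157 cpm in DU145-pc3.1 cells, 114 and 107 in DU145-Esrrb cells, 78.8 and 113 in DY131-treated DU145-pc3.1 cells and 62.3 and 73.2 in DY131-treated DU145-Esrrb cells, so that its highest group was also that of BMP4, whereas KRT8 was lowest in that group, with a mean of 1092 cpm, and highest in DY131-treated DU145-Esrrb cells, with 1620 cpm. EPCAM ranged from 76.9 to 123 cpm. Of 5 fibroblast markers only COL1A1 reached 1 cpm, and of 3 leukocyte markers only CD68 did. The summed leukocyte markers, which were nearly all CD68, ranged from 59.2 to 77.5 cpm in the other groups and from 90.7 to 93.5 cpm in DY131-treated DU145-Esrrb cells, and the part of these markers in the results was not tested. The libraries that differed most within a group were those of empty vector cells with DY131, with a chi-square per degree of freedom of 7.1 against 1.29 to 2.6 in the other groups.

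Windows upstream of 4 transcription starts show the kinds of sites at issue, since Esrrb binds the site AAGGTCA, while BMP Smads bind GC-rich elements with the core GGCGCC and Smads in general the palindrome GTCTAGAC. Each run is the 250 bases before a RefSeq start on GRCh38.p14, read 5′ to 3′ on the gene's strand, with matches on either strand in capitals. RefSeq windows were found for 8 of the 10 members, 13 windows in all.
BMP4 (chr14:53955051-53955300, minus strand, the first of 3 starts, outside annotated BMP4 exons): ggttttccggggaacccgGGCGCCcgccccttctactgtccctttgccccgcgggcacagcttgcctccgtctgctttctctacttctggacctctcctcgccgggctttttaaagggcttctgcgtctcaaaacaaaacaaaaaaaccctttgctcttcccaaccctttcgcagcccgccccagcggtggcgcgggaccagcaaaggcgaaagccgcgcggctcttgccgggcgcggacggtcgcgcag
ID1 (chr20:31605039-31605288, plus strand): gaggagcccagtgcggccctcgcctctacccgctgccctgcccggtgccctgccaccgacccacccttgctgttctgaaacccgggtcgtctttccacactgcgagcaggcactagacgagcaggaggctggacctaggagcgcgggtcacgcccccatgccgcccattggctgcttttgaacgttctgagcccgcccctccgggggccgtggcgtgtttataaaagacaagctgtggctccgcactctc
SMAD6 (chr15:66701986-66702235, plus strand): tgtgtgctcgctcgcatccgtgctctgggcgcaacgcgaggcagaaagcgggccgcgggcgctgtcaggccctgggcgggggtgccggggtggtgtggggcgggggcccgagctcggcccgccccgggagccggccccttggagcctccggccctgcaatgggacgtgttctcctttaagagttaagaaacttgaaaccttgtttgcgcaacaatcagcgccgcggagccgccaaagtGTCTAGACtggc
SMAD7 (chr18:48942808-48943057, minus strand, the third of 3 starts, outside annotated SMAD7 exons): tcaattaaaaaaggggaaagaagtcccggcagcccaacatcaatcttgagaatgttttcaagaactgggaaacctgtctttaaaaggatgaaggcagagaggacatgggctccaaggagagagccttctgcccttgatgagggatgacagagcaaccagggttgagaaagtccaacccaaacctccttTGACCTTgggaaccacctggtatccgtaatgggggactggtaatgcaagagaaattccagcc
The capitals mark GGCGCC at -232 to -227 from the start in BMP4, GTCTAGAC at -12 to -5 in SMAD6 and, in SMAD7, the opposite-strand form of AAGGTCA at -62 to -56, while the ID1 window holds none of the 3. AAGGTCA was in 1 of the 13 member windows and in 3.44% of all 35116 windows. GGCGCC was in 3 of the 13, in windows of BMP4, BAMBI and GREM1, and in 16.4% of all. GTCTAGAC was in 1 of the 13 and in 0.182% of all. The BMP4 and SMAD7 windows shown were the only ones with a match among the 3 starts of each gene. The motifs share no bases in these windows, and a match describes the letters and not a bound site.

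The BMP4 gene spans chr14:53949736-53958761 on the minus strand (GRCh38, GENCODE release 29). It had 9.25 and 8.89 cpm in DU145-pc3.1 cells, against 1.78 and 1.19 cpm in DU145-Esrrb cells. With DY131 it had 1.96 and 3.37 cpm in DU145-pc3.1 cells, against 0.912 and 1.13 cpm in DU145-Esrrb cells. The 2 vehicle-treated DU145-pc3.1 libraries thus stood above all 6 others, and none of the 4 groups overlapped another. Behind these values were 97 and 101, 21 and 13, 21 and 34, and 7 and 10 reads, so every group but the first rested on few reads. The fitted log2 fold change was -2.59 (SE 0.26) for Esrrb under vehicle and -1.77 (SE 0.24) for DY131 in the empty vector cells. It was -0.54 (SE 0.43) for DY131 in DU145-Esrrb cells and -1.35 (SE 0.39) for Esrrb in DY131-treated cells. In bulk RNA, fewer cells with the transcript and less of it per cell cannot be told apart. Leaving out single libraries moved the DY131 value in DU145-pc3.1 cells between -2.20 and -1.41, the ends being without the second and without the first treated replicate.

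**Figure D1:**
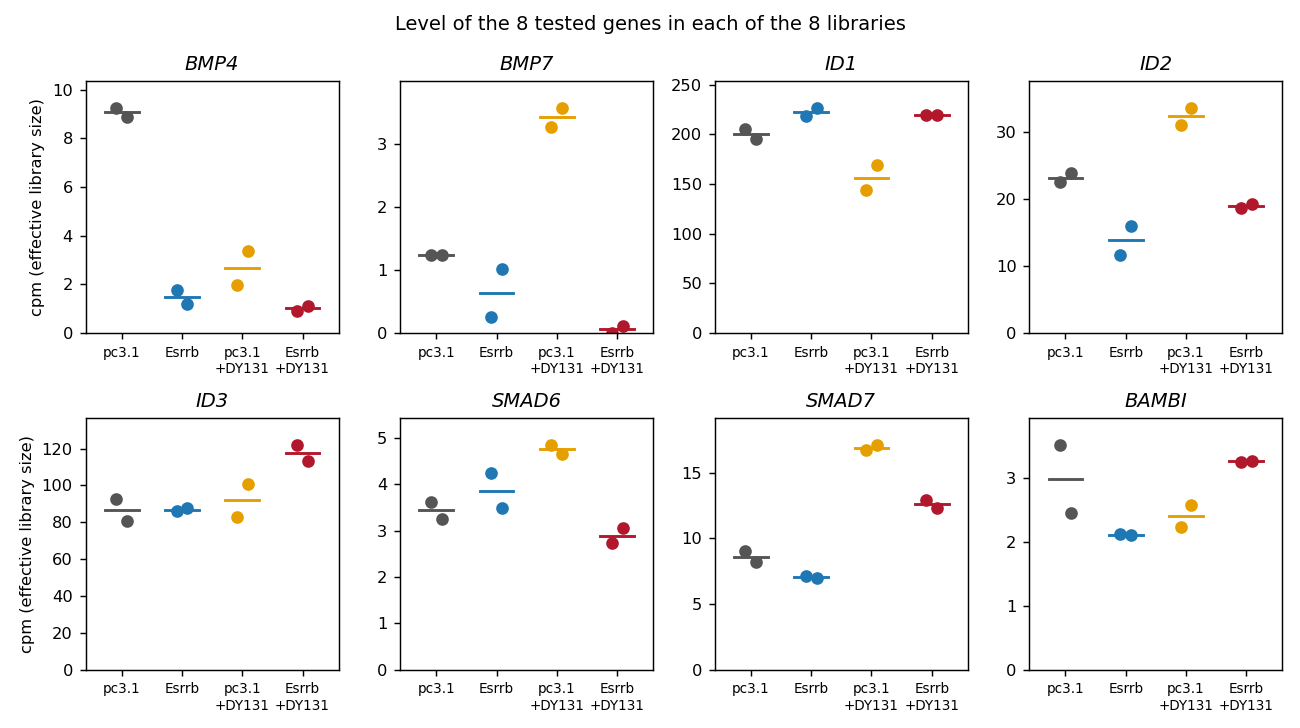
Level of each of the 8 tested genes in cpm by effective library size (y axis, from 0, a scale of its own for each gene) in the 4 groups (x axis). Points are the 2 libraries of a group and bars their mean. BMP4 was highest in vehicle-treated DU145-pc3.1 cells at a mean of 9.07 cpm, whereas SMAD7 and BMP7 were highest in DY131-treated DU145-pc3.1 cells at 16.9 and 3.42 cpm.

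The 5 target genes did not follow BMP4 as a group. With Esrrb under vehicle, where BMP4 was 6.01-fold lower, ID2 fell and the other 4 targets did not pass the test. Of these 4, SMAD7 alone lay below 0, at -0.29 on the log2 scale (interval -0.59 to 0.01), without overlap of its libraries. It stayed between -0.36 and -0.21 in the alternatives, so a fall of SMAD7 was not excluded. ID1, ID3 and SMAD6 were at 0.15, 0.01 and 0.17. The SMAD6 interval ran from -0.28 to 0.63, so its direction was not determined. With DY131 in DU145-pc3.1 cells, where BMP4 was 3.41-fold lower, ID2 and SMAD7 rose, ID1 fell, and ID3 and SMAD6 did not pass. Both comparisons share the vehicle-treated DU145-pc3.1 libraries, so they are not independent of each other.

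Among the 7 tested members other than BMP4, the test was passed (edgeR's quasi-likelihood test, Benjamini-Hochberg adjusted p under 0.05 over all 13856 tested genes) by 1 with Esrrb under vehicle, a lower one. Of all tested genes 4.17% passed there, 1.68% higher and 2.49% lower. With DY131 in DU145-pc3.1 cells 3 members passed as higher and 1 as lower, where 37.4% of all genes did, 18.9% higher and 18.5% lower. In DU145-Esrrb cells DY131 also gave 3 higher and 1 lower, where 58.7% of all genes passed, 29.2% higher and 29.5% lower. Esrrb in DY131-treated cells gave 2 higher and 4 lower, against 50.4% of all genes, 25.1% higher and 25.3% lower. The interaction of DY131 with Esrrb gave 2 higher and 1 lower, against 33.7%, 16.1% higher and 17.6% lower. Apart from the vehicle comparison, passing was thus common among all genes. These 7 members had a median log2 fold change of -0.29 with Esrrb under vehicle. It was 0.47 and 0.44 with DY131 in the empty vector and Esrrb pools, -0.43 with Esrrb under DY131 and -0.02 for the interaction. Medians over all tested genes were within 0.01 of 0. In the comparisons that hold the DY131-treated DU145-Esrrb libraries, fold changes followed the exon junction share described below. The members' counts and medians are not corrected for it. At the study's thresholds, which also ask for a log2 fold change of at least 1 in size, BMP7 alone of the 7 was called, in 4 of the 5 comparisons. It was not called with Esrrb under vehicle, where 0.577% of all genes were, and it was called with DY131 in the empty vector and Esrrb pools, under DY131 and in the interaction, where 4.19%, 12%, 8.21% and 6.28% were. The paper, by contrast, reported no differentially expressed gene with DY131 in cells without Esrrb. In those cells 580 genes were called here at its thresholds, and 604 with the exact test. The reason for this difference was not tested.

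**Figure D2:**
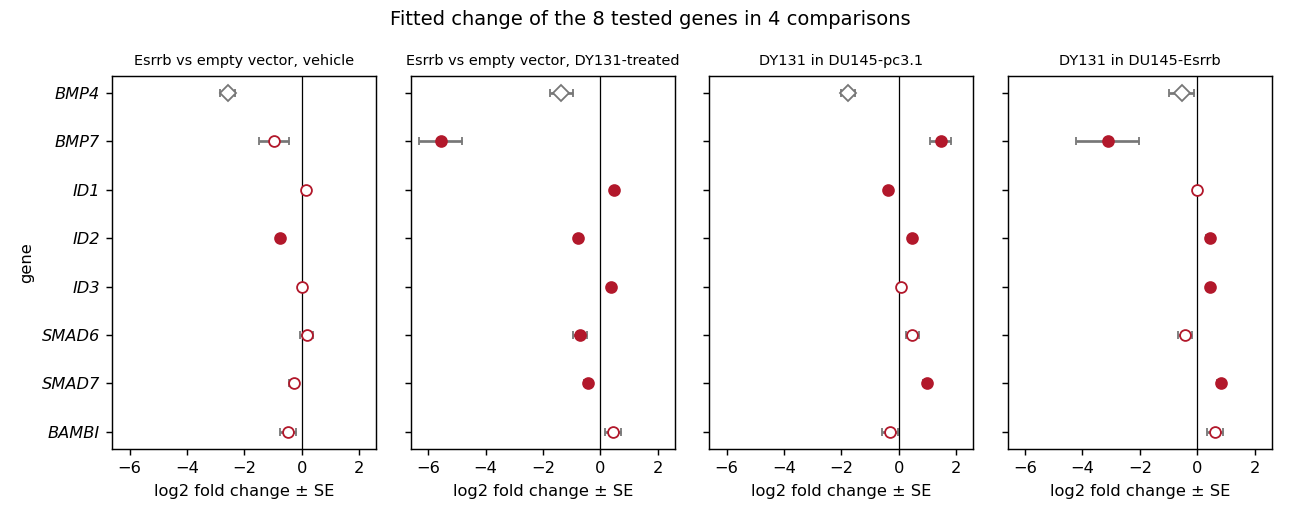
Fitted log2 fold change (x axis) with its SE for the 8 tested genes (y axis) in 4 comparisons. Filled circles passed the test, open circles did not, and the open diamond is BMP4, which was given no test. ID2 lay below 0 in both Esrrb comparisons and above 0 in both DY131 comparisons, and BMP7 ran from 1.46 with DY131 in DU145-pc3.1 cells to -5.56 with Esrrb under DY131.

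BMP7, a ligand closely related to BMP5 and BMP6, was scarce, and in the empty vector cells it was higher with DY131, where BMP4 was lower. It had 13 and 14 reads in DU145-pc3.1 cells and 35 and 36 with DY131, which is 1.24 ± 0.00553 and 3.42 ± 0.212 cpm (SD, n = 2). DU145-Esrrb cells had 3 and 11 reads, and the same cells with DY131 had 0 and 1. No group overlapped another, and DY131-treated DU145-Esrrb cells were near the floor of detection, where 0 reads still allow 0.500 cpm (upper 95% Wilson limit, which covers counting error only). From the summed reads, DY131 raised BMP7 2.76-fold in DU145-pc3.1 cells (exact 95% counting interval 1.75 to 4.48; edgeR adjusted p = 0.00618). In DY131-treated cells it was 56.4-fold lower with Esrrb than without (interval 9.81 to 2260, 71 against 1 read; edgeR adjusted p = 1.95e-05). With DY131 in DU145-Esrrb cells it was 10.2-fold lower (interval 1.55 to 432; edgeR adjusted p = 0.0232). The DY131 effects in the 2 pools went in opposite directions and differed in the interaction test of edgeR (adjusted p = 0.00545). Under vehicle the difference with Esrrb did not pass (edgeR adjusted p = 0.363). DESeq2 did not call the DY131 effect in either pool (adjusted p = 0.0870 and 0.0661), and the fall in DU145-Esrrb cells was also lost without DU145-Esrrb replicate 2 (edgeR adjusted p = 0.254) or the first DY131-treated DU145-Esrrb library (0.136). Without DU145-Esrrb replicate 2 the interaction was lost as well (edgeR adjusted p = 0.0941).

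BMP2, the third ligand, had 10 reads over all 8 libraries. They fell as 1 and 0 in DU145-pc3.1 cells, 0 and 0 in DU145-Esrrb cells, 3 and 0 in DY131-treated DU145-pc3.1 cells and 5 and 1 in DY131-treated DU145-Esrrb cells. GREM1, the secreted antagonist, had 1 read in all, in DY131-treated DU145-pc3.1 replicate 1. Both genes were left out by the filter on low values, and 3 reads correspond to 0.254 to 0.391 cpm at this depth. With no filter, BMP2 passed as higher with DY131 in DU145-Esrrb cells (edgeR adjusted p = 0.0411), on 6 reads against 0 of which 5 were in 1 library, and did not pass in the other 4 comparisons (edgeR adjusted p from 0.468 to 0.795).

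ID1 was the most abundant member. It was at 206 and 196 cpm in DU145-pc3.1 cells, 218 and 227 in DU145-Esrrb cells, 144 and 169 in DY131-treated DU145-pc3.1 cells, and 220 and 220 in DY131-treated DU145-Esrrb cells. The lowest libraries were thus the DY131-treated empty vector cells, which overlapped no other group, and the 2 groups with Esrrb overlapped each other. ID1 fell with DY131 in DU145-pc3.1 cells by 0.36 on the log2 scale (SE 0.07, edgeR adjusted p = 0.000800). It did not pass with DY131 in DU145-Esrrb cells, at -0.02 (SE 0.07, edgeR adjusted p = 0.832). Under DY131 it was higher with Esrrb by 0.49 (SE 0.07, edgeR adjusted p = 3.56e-05). Under vehicle, where BMP4 differed most, ID1 was at 0.15 (95% interval 0.01 to 0.28) with an edgeR adjusted p of 0.291, and it passed as higher when either DY131-treated DU145-pc3.1 library was left out (edgeR adjusted p = 0.0309 and 0.0355). The fall with DY131 in DU145-pc3.1 cells was lost when transcript length and GC content were corrected for, at -0.15 (edgeR adjusted p = 0.126). In DU145-Esrrb cells that correction turned the DY131 value to 0.34 (edgeR adjusted p = 0.000611).

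ID2 was lower with Esrrb and higher with DY131, whichever the other condition. Its rise with DY131 in DU145-Esrrb cells did not pass with the correction for exon junction share described below. DU145-pc3.1 cells had 22.5 and 23.9 cpm and DU145-Esrrb cells 11.7 and 16.0 cpm, and with DY131 the values were 31.1 and 33.6 cpm and 18.6 and 19.2 cpm. The 4 groups did not overlap. With Esrrb it fell by 0.75 on the log2 scale under vehicle (SE 0.13, edgeR adjusted p = 0.00339) and by 0.77 under DY131 (SE 0.13, edgeR adjusted p = 0.000124). With DY131 it rose by 0.48 in DU145-pc3.1 cells (SE 0.12, edgeR adjusted p = 0.00480) and by 0.46 in DU145-Esrrb cells (SE 0.14, edgeR adjusted p = 0.0111). The interaction was -0.02, with a 95% interval of -0.39 to 0.35 (edgeR adjusted p = 0.946). ID2 thus shared its direction with BMP4 for Esrrb and not for DY131. Its fall with Esrrb under vehicle was no longer called without DU145-pc3.1 replicate 2 (edgeR adjusted p = 0.0571) or DU145-Esrrb replicate 1 (0.0862). Its rise with DY131 in DU145-Esrrb cells was not called without DU145-Esrrb replicate 1 (edgeR adjusted p = 0.186) or the second DY131-treated library of these cells (0.0734).

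ID3 differed in 1 group. Its libraries were at 92.6 and 80.7 cpm in DU145-pc3.1 cells, 86.2 and 87.7 in DU145-Esrrb cells, 83.0 and 101 in DY131-treated DU145-pc3.1 cells, and 122 and 113 in DY131-treated DU145-Esrrb cells. The first 3 groups overlapped, and the last stood above all of them. Under vehicle the Esrrb difference was 0.01 with a 95% interval of -0.17 to 0.18, so a change of the size seen in ID2 lay outside it. DY131 raised ID3 in DU145-Esrrb cells by 0.44 (SE 0.09, edgeR adjusted p = 0.000585), and under DY131 it was higher with Esrrb by 0.36 (SE 0.09, edgeR adjusted p = 0.00358). The latter was not called without the first DY131-treated DU145-Esrrb library (edgeR adjusted p = 0.0554). With DY131 in DU145-pc3.1 cells it was at 0.09 (95% interval -0.09 to 0.26; edgeR adjusted p = 0.480), a value that passed without DY131-treated replicate 1, at 0.23 (edgeR adjusted p = 0.0160), and with the length and GC correction, at 0.29 (0.0185).

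SMAD7, the inhibitory Smad that also blocks the transforming growth factor beta receptor, rose with DY131 in both pools. It was at 9.06 and 8.18 cpm in DU145-pc3.1 cells and 7.12 and 6.98 in DU145-Esrrb cells, against 16.7 and 17.1 and 12.9 and 12.3 with DY131. Every treated library was above every vehicle library. The rise was 1.97-fold in DU145-pc3.1 cells (log2 0.97, SE 0.13, edgeR adjusted p = 4.08e-05) and 1.78-fold in DU145-Esrrb cells (log2 0.83, SE 0.15, edgeR adjusted p = 0.000167), and both held in every alternative run. The difference between them was -0.14 with a 95% interval of -0.54 to 0.26 (edgeR adjusted p = 0.622). Under DY131 SMAD7 was lower with Esrrb by 0.43 (SE 0.13, edgeR adjusted p = 0.0126), which was not called with DESeq2 (adjusted p = 0.116), with the length and GC correction (edgeR adjusted p = 0.0860) or without the second DY131-treated DU145-Esrrb library (0.0900). SMAD7 was the member with an AAGGTCA match, in the window of the third of its 3 starts and not in its other windows. A link between that match and the rise was not tested.

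SMAD6, which mainly blocks BMP receptors, was low. It was at 3.62 and 3.26 cpm in DU145-pc3.1 cells, 4.24 and 3.49 in DU145-Esrrb cells, 4.86 and 4.66 in DY131-treated DU145-pc3.1 cells, and 2.74 and 3.05 in DY131-treated DU145-Esrrb cells. The vehicle groups overlapped, and the treated groups lay on either side of them. Under DY131 it was lower with Esrrb by 0.71 (SE 0.24, edgeR adjusted p = 0.0231). That call was lost with DESeq2 (adjusted p = 0.152), without DY131-treated DU145-pc3.1 replicate 1 (edgeR adjusted p = 0.0530) and without either DY131-treated DU145-Esrrb library (0.113 and 0.0707). The other comparisons of SMAD6 did not pass, and its interaction lay at the threshold (-0.89, SE 0.33, edgeR adjusted p = 0.0506).

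BAMBI did not pass in any of the 5 comparisons, and of the alternatives only the length and GC correction brought a call, for DY131 in DU145-Esrrb cells (0.72, edgeR adjusted p = 0.0411, against 0.62 and 0.0746 without it). It ranged from 2.11 to 3.53 cpm, with 3.53 and 2.46 in DU145-pc3.1 cells, 2.12 and 2.11 in DU145-Esrrb cells, 2.24 and 2.58 in DY131-treated DU145-pc3.1 cells, and 3.26 and 3.28 in DY131-treated DU145-Esrrb cells. At 23 to 37 reads per library its interval for Esrrb under vehicle ran from -1.05 to 0.06 on the log2 scale, so neither no change nor a fall of about 1 could be told from the fitted -0.49 at this depth.

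Per kilobase of transcript, the order of levels was ID1, ID3, ID2 and SMAD7 in all 4 groups. ID1 was at 202 ± 7.25 cpm per kb in DU145-pc3.1 cells (SD, n = 2), ID3 at 69.2 ± 6.73, ID2 at 17.0 ± 0.741 and SMAD7 at 6.74 ± 0.485. The SMAD7 identifier belongs to a short transcript of 1278 bases, so its level per length is rough. The identifiers of BMP4 and SMAD6 matched no annotated transcript. Their lengths and exon junction shares are those of a transcript chosen by gene symbol, so these are rough as well. BMP4 came next, at rank 5, in DU145-pc3.1 cells, at 4.73 ± 0.134 cpm per kb with vehicle and 1.39 ± 0.520 with DY131, where it did not stand apart from BAMBI at 1.28 ± 0.126 and SMAD6 at 1.24 ± 0.0365. It had rank 7 in DU145-Esrrb cells, at 0.776 ± 0.216 with vehicle and 0.532 ± 0.0803 with DY131, below BAMBI and SMAD6, and with vehicle its spread there overlapped that of SMAD6 at 1.01 ± 0.138. BMP7, BMP2 and GREM1 were below 1 cpm per kb in every group.

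The genes whose pattern over the 8 libraries was most like that of BMP4, by the root-mean-square difference of centred log2 cpm among 13385 genes with a mean of at least 1 cpm, were no BMP genes. They were HYDIN (0.281, a protein of motile cilia with a near-identical copy in the genome, so its reads are uncertain), TRIM2 (0.354, a ubiquitin ligase), KCNK3 (0.468, a potassium channel), OASL (0.503, an interferon-induced protein) and PADI2 (0.533, a peptidylarginine deiminase). HYDIN, for one, had fitted log2 fold changes of -2.43 (SE 0.29) with Esrrb under vehicle and -1.53 (SE 0.26) with DY131 in DU145-pc3.1 cells. Of the other members, ID2 came nearest at rank 2704, followed by SMAD6 at 5257, BAMBI at 5599, ID1 at 8628, ID3 at 10220, BMP7 at 11386 and SMAD7 at 11571. The likeness uses the values that chose BMP4 and is a description.

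**Figure D3:**
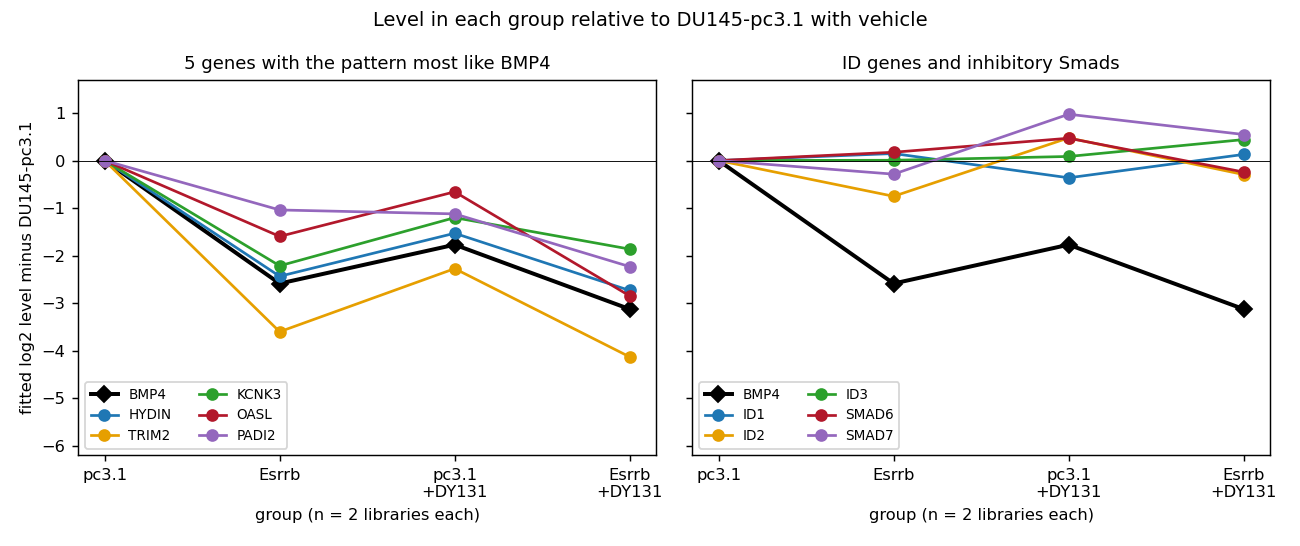
Fitted log2 level relative to vehicle-treated DU145-pc3.1 cells (y axis) in the 4 groups (x axis, 2 libraries each, the lines only joining the points of 1 gene), for BMP4 (black) beside the 5 genes most like it (left) and beside the ID genes and inhibitory Smads (right). The left-hand genes lay below 0 in all 3 other groups, as BMP4 did, and the right-hand genes lay on both sides of 0, with SMAD7 at 0.97 in DY131-treated DU145-pc3.1 cells.

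Of 72 further genes of the pathway (ligands, receptors, co-receptors, transducing Smads, antagonists, intracellular inhibitors and other targets), 46 were tested. Esrrb under vehicle gave 1 higher and 4 lower, 10.9% of the 46, beside 4.17% of all tested genes. DY131 gave 9 higher and 7 lower in DU145-pc3.1 cells and 17 higher and 5 lower in DU145-Esrrb cells, 34.8% and 47.8%, beside 37.4% and 58.7% of all. Esrrb under DY131 gave 10 higher and 6 lower, and the interaction 10 higher and 3 lower, 34.8% and 28.3% beside 50.4% and 33.7%. In the last 4 comparisons the share of the list was thus below that of all genes. Rises outnumbered falls in the list in each of these 4 comparisons. The margin was widest for DY131 in DU145-Esrrb cells, where 29.2% of all genes were higher and 29.5% lower. Next came the interaction, where 16.1% were higher and 17.6% lower. In both of these and for Esrrb under DY131, fold changes followed the exon junction share described below. The list's counts are not corrected for it. The 5 that passed with Esrrb under vehicle were TWSG1, which was higher, and RGMB, SMAD5, PMEPA1 and HES1, which were lower. This count rested on single libraries, with 1 passing without either DU145-pc3.1 replicate or DU145-Esrrb replicate 1, 2 without DU145-Esrrb replicate 2, 3 without either DY131-treated DU145-Esrrb library and 9 without either DY131-treated DU145-pc3.1 replicate. None of the 6 tested receptors passed under vehicle.

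HES1, a basic helix-loop-helix repressor known as a target of Notch and BMP signals, and SMAD5, a transducer of BMP signals, were named after their values were seen. Of the 12 tested genes listed as other targets, HES1 alone passed with Esrrb under vehicle, and 11 did not pass. That is 8.33% of them, beside 4.17% of all tested genes. HES1 was at 11.4 and 11.4 cpm in DU145-pc3.1 cells, 4.50 and 7.17 in DU145-Esrrb cells, 6.91 and 5.05 in DY131-treated DU145-pc3.1 cells and 4.04 and 4.52 in DY131-treated DU145-Esrrb cells. Its highest libraries were thus those of BMP4, and the groups other than that one overlapped in part. It fell with Esrrb under vehicle by 0.98 on the log2 scale (SE 0.20, edgeR adjusted p = 0.0110) and with DY131 in DU145-pc3.1 cells by 0.93 (SE 0.20, edgeR adjusted p = 0.00207), 2 comparisons that share the DU145-pc3.1 libraries. With DY131 in DU145-Esrrb cells it was at -0.43 (edgeR adjusted p = 0.154) and with Esrrb under DY131 at -0.48 (edgeR adjusted p = 0.128). The fall with Esrrb under vehicle was not called with DESeq2 (adjusted p = 0.0581) or without DU145-pc3.1 replicate 1 or 2 or DU145-Esrrb replicate 1 (edgeR adjusted p = 0.0894, 0.0916 and 0.211). SMAD5 was at 85.6 and 81.6 cpm in DU145-pc3.1 cells and 64.2 and 61.9 in DU145-Esrrb cells, and at 103 and 97.4 and at 95.0 and 93.5 with DY131. It fell with Esrrb under vehicle by 0.41 (SE 0.07, edgeR adjusted p = 0.00219) and rose with DY131 by 0.26 in DU145-pc3.1 cells (SE 0.06, edgeR adjusted p = 0.00475) and by 0.58 in DU145-Esrrb cells (SE 0.07, edgeR adjusted p = 3.17e-06). The rise in DU145-pc3.1 cells was not called without DU145-pc3.1 replicate 2 (edgeR adjusted p = 0.0563) or with the length and GC correction (0.0950).

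Among secreted antagonists, NOG (noggin, which binds BMP ligands) was at 2.19 and 1.32 cpm in DU145-pc3.1 cells and 1.27 and 1.56 in DU145-Esrrb cells, and at 7.28 and 6.54 and at 3.26 and 2.82 with DY131. It rose with DY131 by 1.98 (SE 0.26, edgeR adjusted p = 2.91e-05) and 1.09 (SE 0.33, edgeR adjusted p = 0.00908) on the log2 scale in the 2 pools. NOG did not pass the interaction test (-0.89, SE 0.43, edgeR adjusted p = 0.126). Under DY131 it was lower with Esrrb by 1.19 (SE 0.25, edgeR adjusted p = 0.000918). The rise in DU145-Esrrb cells was lost without DU145-Esrrb replicate 1 (edgeR adjusted p = 0.0677) or the first DY131-treated library (0.0617). BMPER, another BMP-binding protein, was at 10.7 and 13.7 cpm in DU145-pc3.1 cells and 22.5 and 19.7 with DY131, and at 8.65 and 13.6 in DU145-Esrrb cells and 25.3 and 26.3 with DY131. It rose in both pools, by 0.79 (SE 0.17, edgeR adjusted p = 0.00187) and 1.22 (SE 0.17, edgeR adjusted p = 1.99e-05), and the rises did not differ in the interaction test (0.43, SE 0.24, edgeR adjusted p = 0.183), except without DU145-Esrrb replicate 2 (0.79, edgeR adjusted p = 0.0237). FSTL1, a follistatin-like protein, was at 10.2 and 9.94 cpm in DU145-pc3.1 cells and 11.0 and 15.7 with DY131, and at 12.5 and 12.8 in DU145-Esrrb cells and 7.42 and 6.66 with DY131. Its DY131 effects differed by -1.24 (SE 0.24, edgeR adjusted p = 0.00122).

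PMEPA1, an intracellular inhibitor that is itself induced by transforming growth factor beta, moved as SMAD7 did with DY131. It went from 58.5 and 54.1 cpm to 156 and 121 in DU145-pc3.1 cells and from 40.7 and 39.9 to 101 and 99.4 in DU145-Esrrb cells. These rises were 1.30 (SE 0.10, edgeR adjusted p = 1.75e-07) and 1.31 (SE 0.10, edgeR adjusted p = 5.85e-08) on the log2 scale. JUNB, an AP-1 subunit and early response gene, fell by 1.08 in each pool (SE 0.08 in both, edgeR adjusted p = 1.54e-07 and 3.77e-08), from 101 and 97.7 cpm to 44.7 and 49.0 and from 92.4 and 87.5 cpm to 39.2 and 45.4.

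In the comparisons that hold the DY131-treated DU145-Esrrb libraries, fold changes followed a property of the transcripts. Across 13606 genes, the share of 50-base windows that cross an exon junction had a Spearman correlation with the log2 fold change of -0.377 for DY131 in DU145-Esrrb cells, -0.478 for Esrrb under DY131 and -0.461 for the interaction, against -0.0374 for Esrrb under vehicle and 0.00974 for DY131 in the empty vector cells. The members have low shares, from 0.337% for GREM1 to 11.96% for SMAD7, beside a median of 14.4%. Genes with shares within 1 percentage point of a member's therefore had medians above 0. For the DY131 effect in DU145-Esrrb cells this median was 0.17 around ID3, 0.19 around ID2 and 0.07 around SMAD7, where the members' own values were 0.44, 0.46 and 0.83. For Esrrb under DY131 it was 0.25 around ID1 and 0.17 around ID3, beside 0.49 and 0.36. For the interaction it was 0.24 around ID1 and 0.16 around ID3, beside 0.34 (SE 0.10, edgeR adjusted p = 0.0135) and 0.35 (SE 0.13, edgeR adjusted p = 0.0428). With a correction for the junction share, the interactions of ID1 and ID3 were 0.12 and 0.19 and neither passed (edgeR adjusted p = 0.413 and 0.289). The ID1 interaction was also lost without DU145-pc3.1 replicate 1, DU145-Esrrb replicate 1 or either DY131-treated DU145-Esrrb library (edgeR adjusted p from 0.0563 to 0.0682). That of ID3 passed in 6 of 15 alternatives. The rises of ID3 with Esrrb under DY131 (0.19, edgeR adjusted p = 0.0919) and of ID2 with DY131 in DU145-Esrrb cells (0.29, edgeR adjusted p = 0.0971) were not called either. ID1 with DY131 in DU145-Esrrb cells became a fall, at -0.23 (edgeR adjusted p = 0.00763), as did SMAD6 at -0.65 (edgeR adjusted p = 0.0358).

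**Figure D4:**
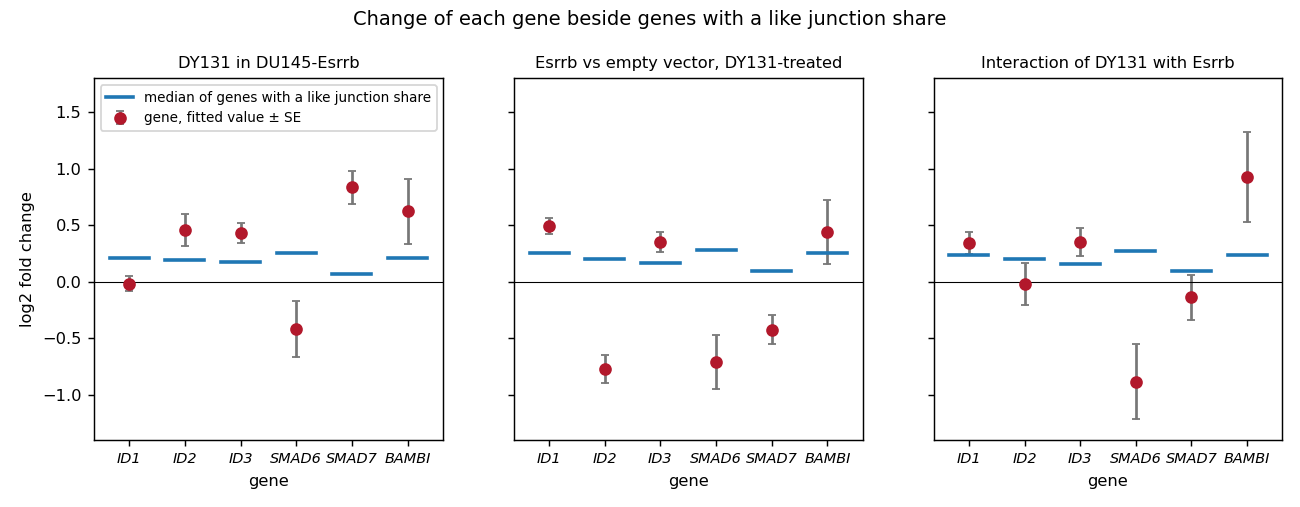
Fitted log2 fold change with its SE (points, y axis) of 6 tested genes (x axis) beside the median of genes whose junction share lies within 1 percentage point (bars), in the 3 comparisons that hold the DY131-treated DU145-Esrrb libraries. The bars lie above 0, from 0.07 for SMAD7 with DY131 in DU145-Esrrb cells to 0.28 for SMAD6 with Esrrb under DY131.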

How the data were processed

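The authors trimmed and filtered 50-base single-end reads from stranded mRNA libraries with the FASTX-Toolkit 0.0.13 and aligned them to hg18 using TopHat2. The deposited values are raw counts per gene, made by the in-house counter MULTICOM-MAP. How it treated strand or reads mapping to several genes is not stated. All 8 libraries were analysed, and samples were grouped by the descriptions in the series record. The headings of the DY131-treated DU145-Esrrb columns carry no replicate number, so "first" and "second" there give only the column order.

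The 13856 of 23391 genes that reached 1 cpm in 2 or more libraries were fitted in 1 model of 4 groups with edgeR 4.0.16 (TMM, quasi-likelihood F test) in R 4.3.3, with Benjamini-Hochberg adjustment over all tested genes, and cpm use effective library sizes. The study used edgeR, whose exact test is among the alternatives. The Esrrb effect was taken under vehicle and under DY131, the DY131 effect in each pool, and then their interaction. Intervals of log2 values are 2 SE to either side, and Wilson and exact intervals cover counting error only. P-values rest on the spread between libraries within groups, with an estimate for each gene shared by all 4 groups. Libraries outside a comparison therefore also bear on its p-values. Whether the 2 replicates of a group came from separate transfections is unclear from the sources. If they came from 1 pool, the spread between transfections is not measured. The test was checked on simulated counts.

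The members and lists were chosen with earlier results of these data known. Named are the 10 members, those of the 72 further pathway genes called at the study's thresholds in a comparison, and the 5 genes most like BMP4. Other genes named were chosen after their values were seen. Part of the cell line marker check is not reported here. Alternatives were other scaling (RLE, library size alone), other filters (none, at least 10 counts in every library), the exact test, DESeq2 1.42.0, only the libraries compared, each library left out, the replicate number as a block, and corrections for exon junction share and for transcript length with GC content, taken from GENCODE 29 on GRCh38. That annotation also gave gene positions and lengths. Promoter windows are from RefSeq on GRCh38.p14. Figures and tables were made with Python 3.11.15, pandas 2.3.3, scipy 1.17.1 and matplotlib 3.10.9.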

Additional observations from a re-analysis of the deposited data

Results flagged for a closer look

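The DY131 effects in the DU145-Esrrb and DU145-pc3.1 pools differed by the interaction test of edgeR for 6 of the named genes. Of all 13856 tested genes 33.7% passed that test, and RGMB and SMAD5 were named after their values were seen. For BMP7 the difference was -4.58 on the log2 scale (fitted on 1 read in the DY131-treated DU145-Esrrb libraries, so its size depends on the prior count). ID1 and ID3 differed by 0.34 and 0.35, values that did not pass with the junction share correction. The ID1 difference passed in 10 of 15 alternatives and that of ID3 in 6 of 15, the rest including single libraries left out. FSTL1 differed by -1.24. RGMB, a BMP co-receptor, differed by 0.58, and SMAD5 by 0.32, which was 0.08 and did not pass with the junction share correction (edgeR adjusted p = 0.581).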

How the results depend on the processing

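BMP4 kept its direction in all 5 comparisons under every alternative that included it. Its log2 fold change ran from -2.91 to -2.34 for Esrrb under vehicle and from -0.79 to -0.21 for DY131 in DU145-Esrrb cells. Leaving out single libraries gave 0 to 2 members passing for Esrrb under vehicle and 1 to 4 for the interaction, the 0 without DU145-pc3.1 replicate 2 or DU145-Esrrb replicate 1. The 1 came without DU145-pc3.1 replicate 1 or any 1 of the 4 libraries of DU145-Esrrb cells. Several values near 0 changed sign. ID1 with DY131 in DU145-Esrrb cells ran from -0.045 to 0.0084 on leaving out libraries and was 0.34 with the length and GC correction, which was past the threshold. The ID2 interaction was 0.036 with that correction and ran from -0.23 to 0.22 on leaving out libraries, and the SMAD7 interaction was 0.0097 with that correction. On leaving out libraries, ID3 ranged from -0.091 to 0.11 for Esrrb under vehicle and from -0.059 to 0.23 for DY131 in DU145-pc3.1 cells. On leaving out libraries the NOG and BMPER values for Esrrb under vehicle ran from -0.63 to 0.098 and from -0.50 to 0.15, and the JUNB and PMEPA1 interactions from -0.11 to 0.097 and from -0.16 to 0.19. The JUNB interaction was 0.13 with the length and GC correction, and that of PMEPA1 was -0.015 by library size alone and -0.028 under the stricter filter of 10 counts per library. TWSG1 with DY131 in DU145-Esrrb cells was -0.14 and its interaction -0.071 with the junction share correction. A cause of these changes was not tested. Over all genes, 578 passed for Esrrb under vehicle, 948 with no filter, 317 with DESeq2, 1238 with only the 4 libraries compared and 141 to 1519 leaving out single libraries, and 80, 43 (at least 10 counts) and 48 (DESeq2) were called at the study's thresholds. The interaction gave 4673, with DESeq2 2897 and with the junction share correction 3079. Without DU145-pc3.1 replicate 1, DY131 in DU145-pc3.1 cells gave 3414 in place of 5185. At least 10 counts in every library left out BMP4 and BMP7. The replicate numbers of the 6 numbered libraries shared only a number (correlations 0.0917, 0.0229 and -0.0685). With a replicate block 392 genes passed for Esrrb under vehicle against 366 without it, and 4879 against 4763 for DY131 in DU145-pc3.1 cells, with 1 and 4 members either way. No paired analysis was possible for the comparisons with DY131-treated DU145-Esrrb cells because their columns carry no number. With no cpm floor, CYP4F3 came second among the genes most like BMP4 and PADI2 dropped out.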

Other observations

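BMP6 and BMP8B, ligands outside the 10 members, were detected in every library and were named after their values were seen. BMP6 was at 23.2 and 24.5 cpm in DU145-pc3.1 cells, 24.1 and 25.5 in DU145-Esrrb cells, 30.4 and 30.1 in DY131-treated DU145-pc3.1 cells and 27.9 and 29.1 in DY131-treated DU145-Esrrb cells. BMP8B ranged from 10.0 to 15.3 cpm over the 8 libraries, a level that is uncertain because BMP8A is a near-identical copy. The receptor BMPR1A ranged from 57.9 to 72.8 cpm.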
